A study of Mus musculus with 32 samples.

Results

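The 10 genes described here carry the nitric oxide and natriuretic peptide signals that relax arterial smooth muscle through cyclic GMP. They were chosen by function, but with earlier results of these data known, so their counts beside the share of all genes are descriptions. They were read from the rows of the count table whose Ensembl identifiers map to Nos1, Nos3, Gucy1a1, Gucy1b1, Prkg1, Pde5a, Pde3a, Pde1a, Npr1 and Npr3, 10 of 55357 genes in the table. All 10 passed the filter on low counts in every comparison. The study asked whether a CADASIL mutation of the receptor NOTCH3 acts through a loss or a gain of its activity, and sequenced polyadenylated RNA of brain arteries from 32 untreated mice, 8 per group and 1 library per mouse. The 3-month groups were Notch3-/-, which lack the receptor, and Notch3+/+. The 12-month groups were TgNotch3R169C, which carry a P1-derived artificial chromosome with rat Notch3 bearing the Arg169Cys mutation and keep the normal mouse gene, and non-Tg animals, called WT below. The transgene lies on the X chromosome, where the study took it largely to escape inactivation in females, and both sexes were used. Both lines had been crossed back to C57BL/6, and the controls were littermates. Mutant and control differ within each age, but the 2 control groups differ in age, line and cohort at once.

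In a resting artery the endothelium makes nitric oxide with endothelial nitric oxide synthase, and the gas binds soluble guanylyl cyclase in the neighbouring smooth muscle, which then makes cyclic GMP. Natriuretic peptides raise the same messenger through a receptor of the cell surface that is itself a guanylyl cyclase. Cyclic GMP activates protein kinase G, which lowers calcium and the calcium sensitivity of contraction, and phosphodiesterases end the signal by hydrolysing cyclic nucleotides.

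Library depth ran from 20289487 to 54481934 counts, and levels are given as CPM, read counts scaled for library depth, on 1 scale over the 32 libraries. Notch3 itself followed the labels, with 16.2 ± 1.82 CPM (SD, n = 8) in Notch3-/- against 83.6 ± 12.0 in Notch3+/+, and 181.9 ± 34.5 in TgNotch3R169C against 73.2 ± 8.19 in WT. All 8 smooth muscle and all 8 endothelial markers of the lists used were detected. In 7 libraries, 4 of WT, 2 of TgNotch3R169C and 1 of Notch3-/-, markers of the choroid plexus summed to between 8824 and 25481 CPM, whereas the other 25 had 229.1 to 655.1. Values without these libraries, an alternative chosen after seeing the data, are given beside results of Npr1, Gucy1a1, Gucy1b1, Pde1a and Nos1 that moved with them.

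Nos3, endothelial nitric oxide synthase, had the highest level per length of the 10 genes in every group. In Notch3+/+ arteries it reached 49.9 ± 7.25 CPM per kb of exon (SD, n = 8). Pde1a, the calcium- and calmodulin-stimulated phosphodiesterase, followed at 37.7 ± 2.96 CPM per kb, and the ranges of the 2 genes overlapped, although Nos3 was the higher in all 8 mice. A gap came next. Pde5a, the phosphodiesterase specific for cyclic GMP, and Npr3, the receptor that clears natriuretic peptides, had 18.3 ± 1.47 and 18.3 ± 3.58 CPM per kb, and Npr1, the natriuretic peptide receptor with cyclase activity, had 15.8 ± 1.15. Pde5a was above Npr3 in only 4 of 8 mice, so these 2 did not differ beyond their spread. Gucy1b1, the haem-binding beta subunit of soluble guanylyl cyclase, followed at 12.9 ± 2.41 CPM per kb, well above its partner, the alpha subunit Gucy1a1, at 5.28 ± 1.32. Pde3a, a phosphodiesterase that hydrolyses cyclic AMP and is inhibited by cyclic GMP, had 5.87 ± 1.36 CPM per kb, and Nos1, neuronal nitric oxide synthase, 5.63 ± 1.19, and Pde3a was the higher of these 2 in 3 of 8 mice. Prkg1, which encodes protein kinase G of smooth muscle, was the lowest at 3.93 ± 0.40 CPM per kb.

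**Figure D1:**
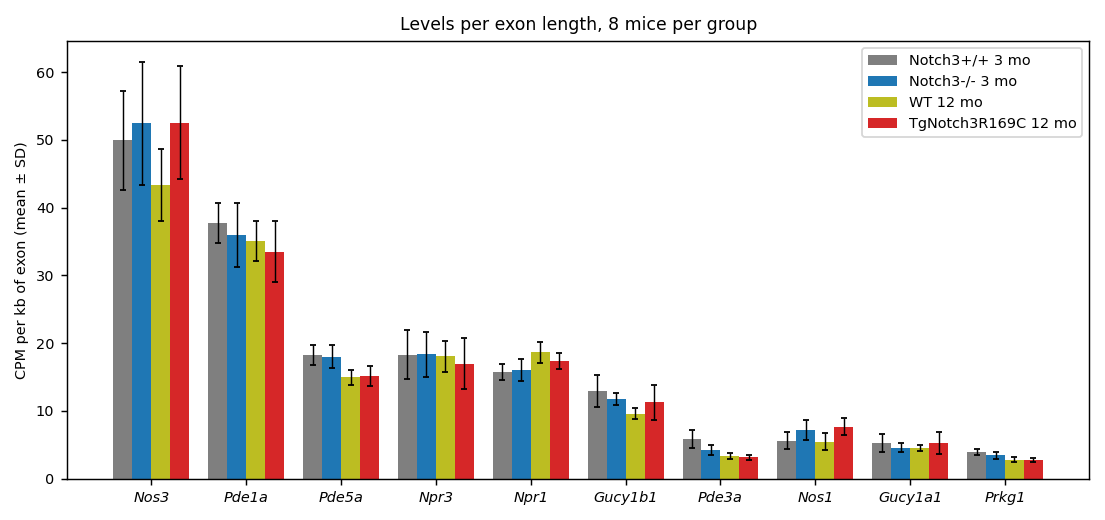
Bars show the mean level of each gene in CPM per kb of exon for the 4 groups, with the SD over 8 mice. Nos3 and Pde1a are the highest and Prkg1 the lowest in all 4 groups. By this exon length Pde3a stands above Nos1 and Gucy1a1 in Notch3+/+ arteries and below both in the other 3 groups. By the longest transcript Pde3a was below both in Notch3+/+ as well.

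These orders rest on the exon lengths of a mouse annotation of an earlier genome build than the counts. Dividing by the longest transcript in place of all exons of a gene put Pde1a above Nos3 in Notch3+/+ arteries (53.2 against 49.9 CPM per kb), and Npr3 above Pde5a (24.96 against 23.7). The longest transcript also put Pde3a 10th of 10 in Notch3+/+, at 6.08 CPM per kb, below Gucy1a1 (7.82), Nos1 (6.20) and Prkg1 (6.12). Per kb of exon Pde3a stood 7th in Notch3+/+ and, in the other 3 groups, 9th of 10, below Nos1 and Gucy1a1. Its higher place in Notch3+/+ and the last place of Prkg1 there thus depended on the length used. TgNotch3R169C was the group in which the ranges of Nos3 and Pde1a did not overlap, at 52.5 ± 8.36 and 33.5 ± 4.55 CPM per kb.

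**Figure D2:**
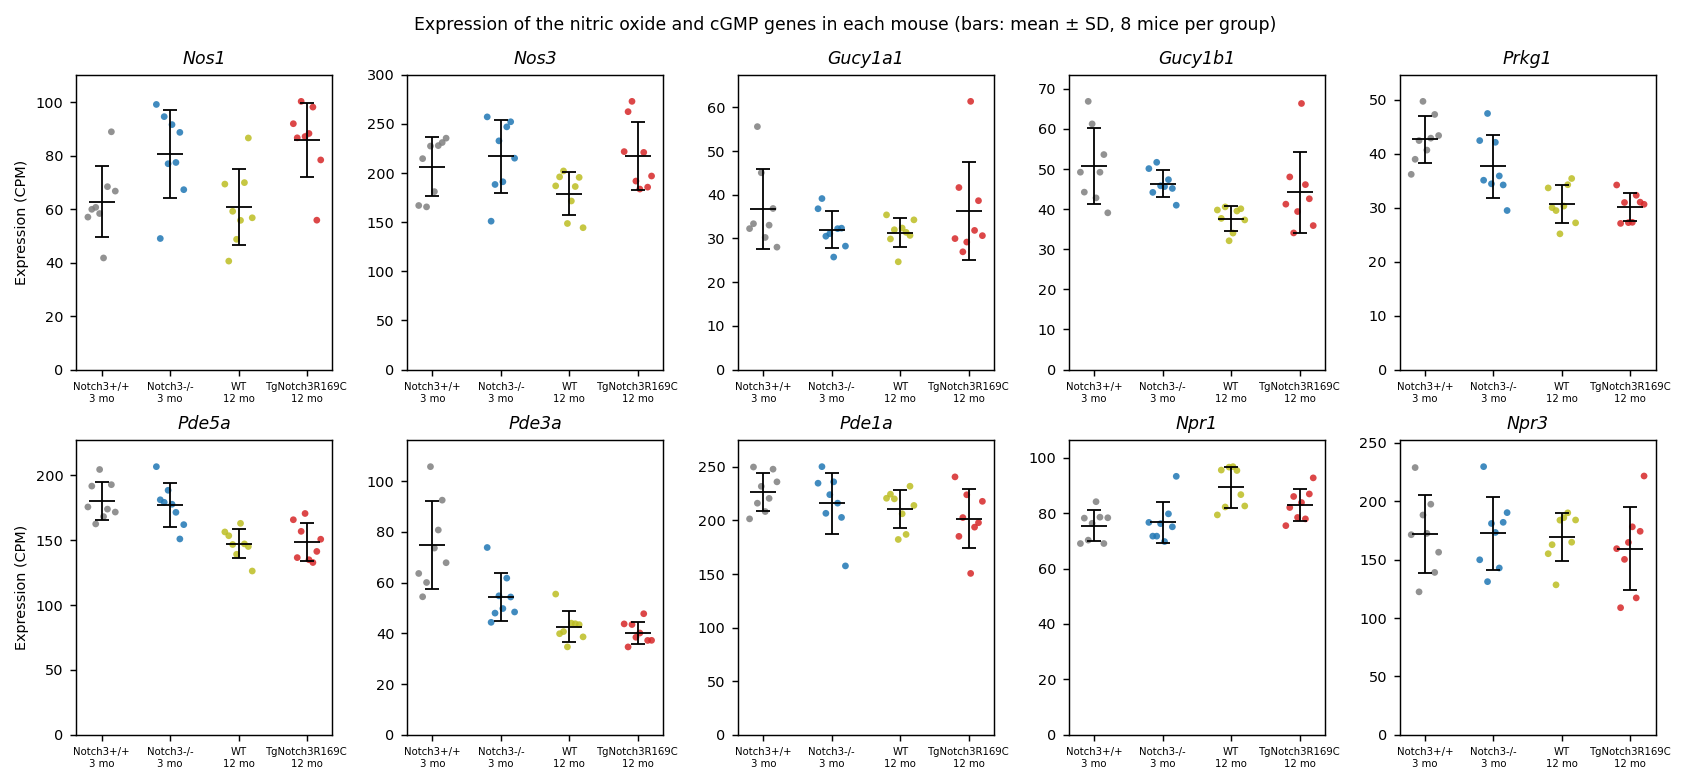
Each point is 1 mouse and the bars give the mean and SD of CPM over 8 mice per group, on linear axes that start at 0. The points of Prkg1 in WT mice at 12 months lie wholly below those of Notch3+/+ mice at 3 months, while the mutant and control points of the same age overlap for all 10 genes.

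The first comparison asked what loss of NOTCH3 does to the pathway. In Notch3-/- against Notch3+/+ arteries none of the 10 genes passed edgeR's quasi-likelihood test with Benjamini-Hochberg adjustment, in a comparison that called 115 genes, or 0.649% of 17714 tested. At an unadjusted p below 0.05 there were 2 of 10, Pde3a lower and Nos1 higher, against 7.69% of all genes. DESeq2, limma voom and the other normalizations also called none, whereas a fit of all 4 groups called Pde3a. The median log2 fold change of the 10 genes was -0.04, against -0.0011 for all genes tested.

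Pde3a had the smallest p of the 10 genes in this comparison. It ran from 54.4 through a median of 70.7 to 105.7 CPM in Notch3+/+ and from 44.3 through 52.0 to 73.8 CPM in Notch3-/- mice. Of the 8 Notch3-/- mice, 5 lay below the whole Notch3+/+ range and 7 below its median, yet Notch3-/- replicate 1 at 73.8 CPM was higher than 5 of the controls, so the groups overlapped. The log2 fold change was -0.46 ± 0.13 (SE), a fold of 0.729 with a 95% confidence interval of 0.5998 to 0.886, and the adjusted p by edgeR was 0.196. The fit of all 4 groups gave the same fold with an adjusted p of 0.0466 by edgeR, and adding the mean of the endothelial markers as a covariate gave -0.52 with an adjusted p of 0.0264. Over the alternatives for this gene the adjusted p ran from 0.0264 to 0.814. Smooth muscle markers moved with it: 8 of 8 were lower in Notch3-/- and 6 were called, with a median log2 fold change of -0.63, and their summed level ran from 1680 to 2629 CPM against 2486 to 4438 CPM in Notch3+/+. With the mean of those markers as a covariate the Pde3a estimate was 0.20. Only Notch3-/- replicate 1 lay within the Notch3+/+ range of the summed markers, so this fit can hardly separate the covariate from the group. In bulk arteries, fewer cells of a type and less RNA per cell cannot be told apart.

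Nos1 was the gene on the high side. Its level ran from 41.8 through 60.4 to 89.0 CPM in Notch3+/+ and from 49.1 through 83.2 to 99.3 CPM in Notch3-/- arteries. Of the Notch3-/- mice 7 of 8 were above the control median and 3 above the whole control range, while replicate 2 had the lowest value of its group at 49.1 CPM. The log2 fold change was 0.36 ± 0.15, a fold of 1.29 (95% confidence interval 1.04 to 1.59), which did not pass the adjustment (edgeR adjusted p = 0.515).

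The other 8 genes had folds between 0.870 for Gucy1a1 and 1.05 for Nos3. Nos3 ran from 165.6 through 221.0 to 235.5 CPM in Notch3+/+ and from 151.0 through 223.9 to 257.1 CPM in Notch3-/-, with a fold of 1.05 and an interval of 0.895 to 1.24. Prkg1 came nearest to a change among them: 7 of 8 Notch3-/- mice were below the control median and 5 below the control range, with a fold of 0.883 (95% confidence interval 0.775 to 1.01, edgeR adjusted p = 0.687). For Pde5a the fold was 0.985 and the interval 0.902 to 1.08, the narrowest but for Npr1. The intervals of Npr1 (0.938 to 1.105) and Pde1a (0.854 to 1.07) were of similar width, and those of Npr3 (0.838 to 1.201) and Gucy1a1 (0.720 to 1.05) were wider. Without the 7 choroid plexus libraries the log2 fold change of Pde1a went from -0.07 to -0.0067. A missed threshold does not show that these genes were equal in the 2 genotypes.

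The second comparison asked the same of the mutant transgene. In TgNotch3R169C against WT arteries at 12 months, none of the 10 genes passed by edgeR, in a comparison that called 20 genes, or 0.113% of 17731. DESeq2 and limma voom called none of the 10 either. At an unadjusted p below 0.05 there were 4 of 10 genes, with Nos1, Nos3 and Gucy1b1 higher and Npr1 lower, against 7.27% of all genes tested. The median log2 fold change of the 10 was -0.0068, beside -0.0074 for all genes.

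Both nitric oxide synthases stood on the high side. Nos1 ran from 40.6 through 58.0 to 86.7 CPM in WT and from 55.9 through 87.8 to 100.4 CPM in TgNotch3R169C mice. Of the 8 transgenic mice, 6 exceeded the highest WT mouse, but replicate 7, at 55.9 CPM, lay among the lower WT values, and WT replicate 7, at 86.7 CPM, lay among the transgenic ones. The log2 fold change was 0.49 ± 0.14, a fold of 1.41 (95% confidence interval 1.15 to 1.73), with an adjusted p of 0.420 by edgeR and of 0.0884 to 0.883 over the alternatives. Nos3 ran from 144.4 through 186.6 to 202.1 CPM in WT and from 183.7 through 209.0 to 272.9 CPM in TgNotch3R169C. Of the transgenic mice 4 of 8 were above the WT range and none below it, with a fold of 1.21 (95% confidence interval 1.05 to 1.40, edgeR adjusted p = 0.607). The endothelial markers had a median log2 fold change of 0.07, with 7 of 8 higher and 0 called by edgeR. The neuron markers had a median of 0.40, with 8 of 8 higher and 0 called. With the endothelial markers as a covariate the log2 fold change of Nos3 went from 0.28 to 0.16 and that of Nos1 to 0.43, and with the neuron markers they were 0.29 and 0.43. Without the 7 choroid plexus libraries they were 0.31 for Nos3 and 0.35 for Nos1.

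The cyclase subunits had 1 mouse far above the rest. Gucy1b1 ran from 32.1 through 38.6 to 40.6 CPM in WT and from 34.1 through 41.9 to 66.3 CPM in TgNotch3R169C, and 5 of 8 transgenic mice were above the WT range. Gucy1a1 ran from 24.7 through 31.7 to 35.4 CPM in WT and from 27.0 through 31.3 to 61.4 CPM in TgNotch3R169C. Transgenic replicate 5 had the highest value of both subunits, and in that library the neuron markers summed to 1066 CPM, the highest of the 32. The folds were 1.17 for Gucy1b1 (95% confidence interval 1.002 to 1.37, edgeR adjusted p = 0.679) and 1.15 for Gucy1a1 (0.940 to 1.42, edgeR adjusted p = 0.761). Without replicate 5 the log2 fold change of Gucy1b1 fell from 0.23 to 0.13, and with the neuron markers as a covariate it was 0.07. Replicate 5 is also 1 of the 7 choroid plexus libraries, and without these 7 the log2 fold change of Gucy1b1 was 0.09 and that of Gucy1a1 went from 0.21 to -0.0022.

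Npr1 was the gene of the 4 that stood lower. It ran from 79.3 through 91.0 to 96.7 CPM in WT and from 75.5 through 82.9 to 92.7 CPM in TgNotch3R169C arteries, and 7 of 8 transgenic mice were below the WT median. The fold was 0.927 (95% confidence interval 0.859 to 0.999, edgeR adjusted p = 0.679). The 4 WT libraries with choroid plexus markers were the 4 highest for this gene, at 95.4 to 96.7 CPM, and without the 7 libraries that carried such markers the log2 fold change went from -0.11 to -0.03. The remaining genes had folds of 0.939 to 1.01, and the estimates for Prkg1 (0.980, 0.880 to 1.09) and Pde5a (1.01, 0.921 to 1.11) had the narrowest intervals among them. Pde1a, at a log2 fold change of -0.06, was at -0.10 without the 7 libraries and at 0.03 with the smooth muscle markers as a covariate.

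Whether the genes changed differently in the 2 mutant comparisons was tested in 1 fit of all 32 libraries. These comparisons also differ in age, line and cohort, so the mutation cannot be told apart from these in that test. None of the 10 genes passed by edgeR, DESeq2 or limma voom, in a test that called 65 genes, or 0.35% of 18555. At an unadjusted p below 0.05 there were 3 of 10 genes against 8.62% of all genes, namely Gucy1a1, Gucy1b1 and Pde3a. Gucy1a1 and Gucy1b1 had negative estimates in Notch3-/- (-0.20 and -0.13) and positive ones in TgNotch3R169C (0.21 and 0.23). Pde3a was lower in both, at -0.46 in Notch3-/- and -0.08 in TgNotch3R169C. The log2 difference was 0.41 ± 0.20 for Gucy1a1, 0.36 ± 0.15 for Gucy1b1 and 0.38 ± 0.16 for Pde3a, with adjusted p of 0.572, 0.478 and 0.515 by edgeR. Without the 7 choroid plexus libraries the differences were 0.17 for Gucy1a1 and 0.19 for Gucy1b1, and with the smooth muscle markers as a covariate that of Pde3a was 0.0044. Nos1, which had positive estimates in both mutants, gave a difference of 0.14 ± 0.21, and Pde1a one of 0.0034 ± 0.11. Without the 7 libraries both turned, to -0.05 for Nos1 and -0.09 for Pde1a.

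**Figure D3:**
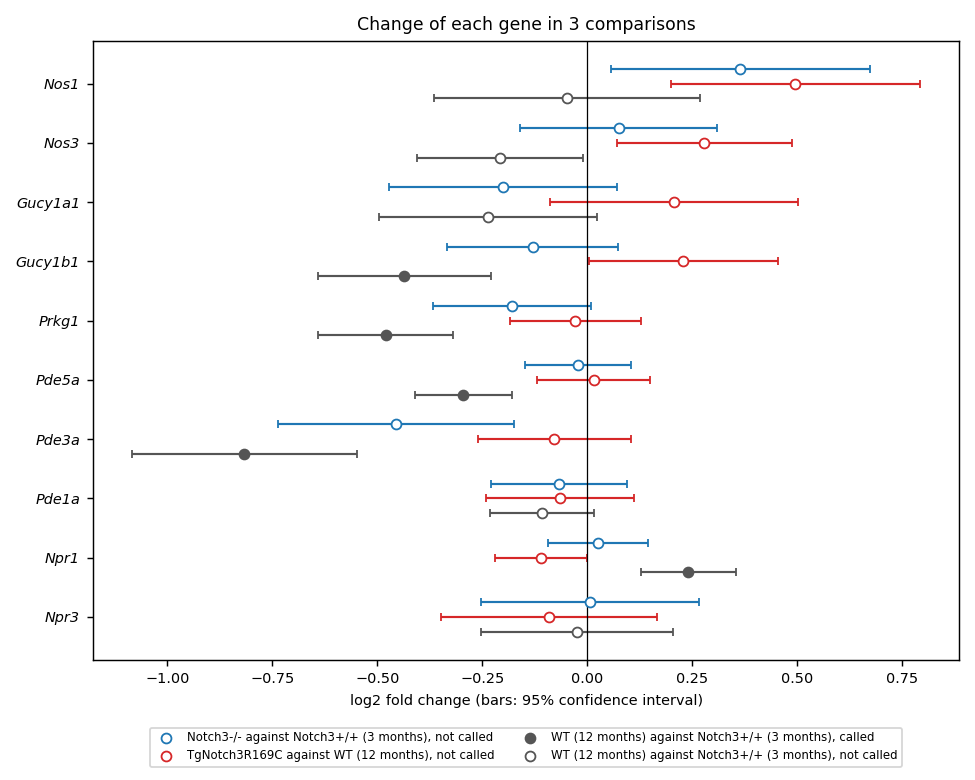
Points give the log2 fold change of each gene in 3 comparisons and lines its 95% confidence interval. Filled points passed an adjusted p of 0.05. The filled points are those of Gucy1b1, Prkg1, Pde5a, Pde3a and Npr1 in the comparison of the control groups, and no point of either mutant comparison is filled.

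The 2 control groups differed most. In WT mice at 12 months against Notch3+/+ mice at 3 months, 5 of 10 genes changed by edgeR, in a comparison that called 7.92% of 17643 genes tested. Of these, 4 were lower (4.05% of all genes were called lower) and 1 was higher (3.87% were called higher). At an unadjusted p below 0.05 there were 6 of 10, against 24.2% of all genes. The median log2 fold change of the 10 was -0.22, while that of all genes was 0.0026. This contrast shares the Notch3+/+ libraries with the Notch3-/- comparison and the WT libraries with the TgNotch3R169C comparison, so the estimates are not independent of those above. Age, line and cohort cannot be told apart in it.

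The sequences next to the start sites are shown for Gucy1b1, Prkg1 and Npr1, to set 2 genes that were lower beside the one that was higher. They come from RefSeq on build GRCm38.p6, where 8 of the 10 genes matched and Nos3 and Pde3a did not. Each line is the 250 bases before a start, 5′ to 3′ on the strand of the gene, and capitals mark TGGGAA, the core letters bound by RBPJ, the DNA-binding partner of Notch receptors, searched on both strands.
Gucy1b1, chr3:82074712-82074961, minus strand: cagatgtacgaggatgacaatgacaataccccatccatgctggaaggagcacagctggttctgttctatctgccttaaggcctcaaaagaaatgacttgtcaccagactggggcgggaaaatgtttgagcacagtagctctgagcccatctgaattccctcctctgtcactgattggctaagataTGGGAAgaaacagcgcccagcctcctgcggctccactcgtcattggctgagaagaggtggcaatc
Prkg1, upstream start, chr19:31765034-31765283, minus strand: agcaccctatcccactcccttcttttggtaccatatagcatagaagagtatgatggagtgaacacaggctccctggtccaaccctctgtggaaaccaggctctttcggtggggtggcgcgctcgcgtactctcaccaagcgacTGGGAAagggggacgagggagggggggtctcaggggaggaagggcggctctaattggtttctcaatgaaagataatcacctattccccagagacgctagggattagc
Prkg1, downstream start, chr19:31664371-31664620, minus strand: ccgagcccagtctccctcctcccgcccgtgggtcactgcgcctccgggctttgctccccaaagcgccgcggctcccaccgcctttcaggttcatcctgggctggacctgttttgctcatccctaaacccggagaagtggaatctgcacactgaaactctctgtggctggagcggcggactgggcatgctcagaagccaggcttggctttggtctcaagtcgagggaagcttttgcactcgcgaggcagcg
Npr1, chr3:90465867-90466116, minus strand: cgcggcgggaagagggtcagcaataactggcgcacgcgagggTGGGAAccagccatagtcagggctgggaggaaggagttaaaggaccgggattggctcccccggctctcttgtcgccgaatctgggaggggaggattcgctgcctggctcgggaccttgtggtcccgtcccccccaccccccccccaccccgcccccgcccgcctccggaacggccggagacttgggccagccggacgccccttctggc

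In these windows the letters occurred once before Gucy1b1, ending 60 bases upstream of the start, once before the upstream start of Prkg1, ending 102 bases upstream, and once before Npr1, ending 203 bases upstream. They were absent from the window of the downstream start of Prkg1. The same letters were present in 21.6% of 32851 windows of this length in the table. The CArG box, the motif of serum response factor in smooth muscle genes, was in 1.47% of all windows and in none of these 4. A match of letters is a description and not a binding site, and its absence says nothing of the factor. The windows of Npr1, which was higher, and of Gucy1b1 and Prkg1, which were lower, both held TGGGAA.

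Pde3a fell the most of the 10 genes. It ran from 54.4 through 70.7 to 105.7 CPM in Notch3+/+ at 3 months and from 34.7 through 42.1 to 55.5 CPM in WT at 12 months. Of the 8 WT mice 7 were below the whole younger range, and WT replicate 1, at 55.5 CPM, was the single one within it. The log2 fold change was -0.82 ± 0.13, a fold of 0.568 (95% confidence interval 0.472 to 0.683), with an adjusted p of 0.00143 by edgeR.

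Prkg1 was the only one of the 10 genes whose groups did not overlap. The same held for 1.24% of all genes tested. It ran from 36.2 through 42.7 to 49.7 CPM in Notch3+/+ and from 25.1 through 30.1 to 35.4 CPM in WT. The highest WT mouse, replicate 7, was just below the lowest Notch3+/+ mouse, replicate 1. The fold was 0.717 (95% confidence interval 0.641 to 0.801, edgeR adjusted p = 0.00171), a log2 fold change of -0.48 ± 0.08.

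Pde5a, whose product degrades the cyclic GMP that activates protein kinase G, fell less. It ran from 162.6 through 174.8 to 204.5 CPM in Notch3+/+ and from 126.3 through 146.9 to 163.0 CPM in WT, and only WT replicate 5 entered the younger range. The fold was 0.815 (95% confidence interval 0.752 to 0.883, edgeR adjusted p = 0.00467). Both the kinase and a phosphodiesterase acting on its activator were lower in the same libraries.

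Of the 2 cyclase subunits, Gucy1b1 was called and Gucy1a1 was not. Gucy1b1 ran from 39.1 through 49.2 to 66.9 CPM in Notch3+/+ and from 32.1 through 38.6 to 40.6 CPM in WT. All 8 WT mice were below the younger median and 4 below the younger range, with a fold of 0.739 (95% confidence interval 0.641 to 0.853, edgeR adjusted p = 0.0134). Gucy1a1 ran from 28.0 through 33.2 to 55.6 CPM in Notch3+/+ and from 24.7 through 31.7 to 35.4 CPM in WT, with 6 of 8 WT mice below the younger median. Its fold was 0.849, with an interval of 0.709 to 1.02. Both subunits were measured in the same mice, so intervals of single genes cannot compare them. The log2 ratio of Gucy1a1 to Gucy1b1 had a median of -0.49 in Notch3+/+ (-0.61 to -0.27). In WT the median was -0.33 (-0.38 to -0.07), and this difference was not tested. Notch3+/+ replicate 3 had the highest value of both subunits and the highest sum of neuron markers of its group, 941.8 CPM. Without the 7 choroid plexus libraries, which leaves 4 WT mice, Gucy1b1 had a log2 fold change of -0.37 in place of -0.44 and was no longer called (edgeR adjusted p = 0.136). Over the alternatives its adjusted p ran from 0.00076 to 0.773.

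Npr1 rose. It ran from 69.0 through 77.2 to 84.1 CPM in Notch3+/+ and from 79.3 through 91.0 to 96.7 CPM in WT, all 8 WT mice were above the younger median and 5 above the younger range. The fold was 1.18 (95% confidence interval 1.09 to 1.28, edgeR adjusted p = 0.0123). The 4 WT libraries with choroid plexus markers lay at 95.4 to 96.7 CPM and the other 4 at 79.3 to 86.7 CPM. In Notch3-/- and in TgNotch3R169C the highest Npr1 value, 93.3 and 92.7 CPM, was also in a library with those markers, replicate 8 of each. Without the 7 libraries the log2 fold change went from 0.24 to 0.13 and was not called (edgeR adjusted p = 0.228), within a range of 0.000641 to 0.568 over the alternatives.

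Nos3 fell short of the adjusted threshold, at a log2 fold change of -0.21, or 0.03 with the endothelial markers as a covariate. It ran from 165.6 through 221.0 to 235.5 CPM in Notch3+/+ and from 144.4 through 186.6 to 202.1 CPM in WT, and all 8 WT mice were below the younger median, with a fold of 0.866 (95% confidence interval 0.755 to 0.993, edgeR adjusted p = 0.182). Nos1 (fold 0.967, interval 0.776 to 1.204), Pde1a (0.928, 0.852 to 1.01) and Npr3 (0.983, 0.838 to 1.15) had intervals that held no change.

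Markers of smooth muscle were lower in the same contrast. All 8 were called lower by edgeR, with a median log2 fold change of -0.81, and their summed level ran from 1385 to 2144 CPM in WT against 2486 to 4438 CPM in Notch3+/+, with no overlap. With their mean as a covariate, none of the 10 genes was called by edgeR and only 2 genes of all those tested were. The estimate of Pde3a was then -0.09, of Prkg1 -0.21, of Pde5a -0.10, of Gucy1b1 -0.14 and of Npr1 0.14. Because the summed smooth muscle markers did not overlap between the 2 groups, this fit can hardly separate the covariate from the group. The lost calls therefore do not show what the differences go with. All 8 endothelial markers were lower and 1 of them was called, with a median of -0.17. With their mean as a covariate 1 of the 10 genes, Pde3a, was called by edgeR, among 166 called genes in all. Other lists moved in the same contrast. The oligodendrocyte markers were higher in 6 of 6 with 3 called by edgeR, at a median log2 fold change of 0.70 and summed levels of 1173 to 1803 CPM in WT against 475.6 to 1524 CPM in Notch3+/+. The choroid plexus markers were higher in 7 of 7 with 5 called. Of the pericyte markers 2 of 6 were called higher and of the fibroblast markers 3 of 7 lower, with medians of 0.11 and -0.10, and 1 astrocyte marker was called in each direction and 1 of the 6 macrophage and microglia markers lower. How much of each gene's difference goes with the share of smooth muscle RNA or with these other lists was not tested.

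Within groups, several of the genes followed the markers of a cell type from mouse to mouse. The log2 levels were centred on the group means, and 100 relations of the 10 genes with 10 marker lists were computed over the 32 libraries, with permutation within groups. Nos3 varied with the endothelial markers (Pearson r = 0.81, permutation p = 1e-05, adjusted 0.001; Spearman rho = 0.86, permutation p = 1e-05, adjusted 0.0005), and r was 0.82 without the 2 farthest mice. Here 1e-05 is the smallest p the permutations could give. Pde3a varied with the smooth muscle markers (r = 0.76, permutation p = 2e-05, adjusted 0.001; rho = 0.74, permutation p = 1e-05, adjusted 0.0005), and r was also 0.76 without those 2. It also had a relation with the endothelial markers (r = 0.53, permutation p = 0.00294, adjusted 0.0327; rho = 0.58, permutation p = 0.00151, adjusted 0.0266), with r = 0.55 without 2. With the pericyte markers Nos3 had rho = 0.56 (permutation p = 0.00164, adjusted 0.0266). Its r of 0.49 with them did not pass (permutation p = 0.00518, adjusted 0.0518), and r was 0.59 without 2. The marker lists come from the same libraries as the genes, so they share depth and dissection.

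Gucy1b1 was the gene that followed neuron markers (r = 0.62, permutation p = 0.00017, adjusted 0.00425; rho = 0.56, permutation p = 0.00135, adjusted 0.0266), with r = 0.54 without the 2 farthest mice. Pde5a went the other way with the same list (r = -0.55, permutation p = 0.00144, adjusted 0.024; rho = -0.55, permutation p = 0.00186, adjusted 0.0266), and r was -0.49 without 2. With smooth muscle markers Pde5a had r = 0.54 (permutation p = 0.00217, adjusted 0.0292), but its rho of 0.49 did not pass (permutation p = 0.00639, adjusted 0.0639), and r was 0.44 without 2. Pde1a had r = 0.54 with the macrophage and microglia markers (permutation p = 0.00234, adjusted 0.0292), while rho was 0.38 (permutation p = 0.0402, adjusted 0.202) and r was 0.39 without the 2 farthest mice. Within the 25 libraries without choroid plexus markers that r was 0.12. Because the choroid plexus markers split the libraries into separate clusters, no pooled r is given for them. Within the 25 libraries without those markers, the r of Npr1 with that list was 0.38 and that of Pde1a was -0.36. Neither Prkg1, Nos1, Npr3 nor Gucy1a1 had a relation with any of the 10 lists that passed the adjustment for r.

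**Figure D4:**
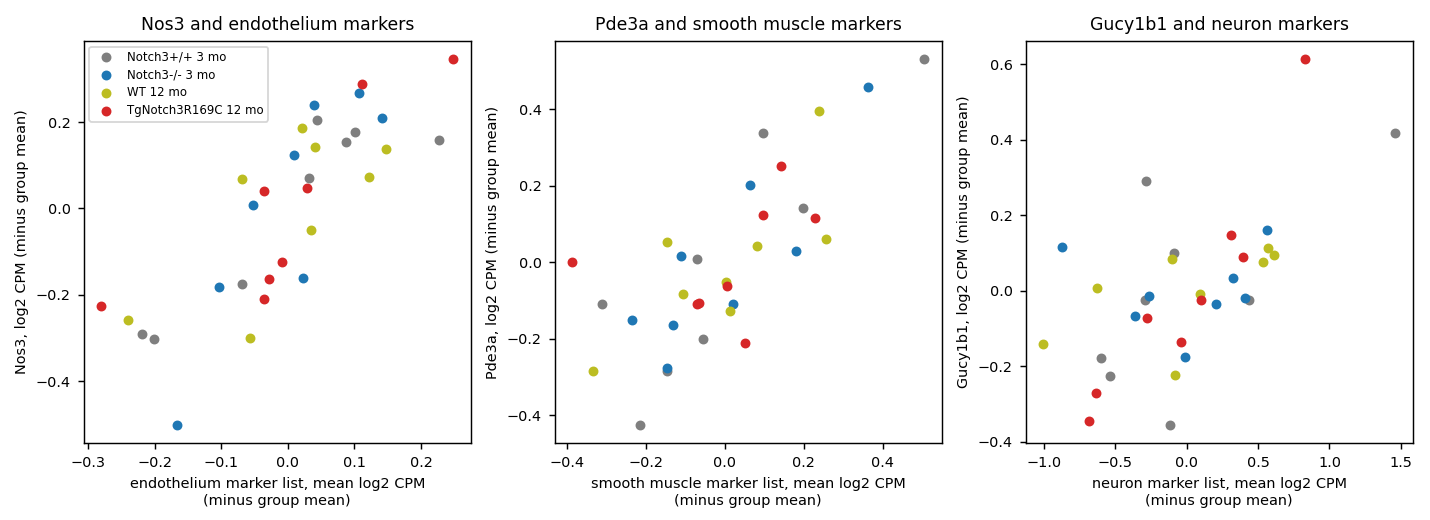
Each point is 1 of 32 libraries, with the mean log2 CPM of a marker list on the x axis and the log2 CPM of a gene on the y axis, both minus the group mean, and colours give the group. The points rise together in all 3 panels, with r = 0.81 for Nos3 and endothelial markers, 0.76 for Pde3a and smooth muscle markers and 0.62 for Gucy1b1 and neuron markers.

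Among the 10 genes themselves the closest pair was the 2 cyclase subunits. Gucy1a1 and Gucy1b1 had r = 0.85 and rho = 0.72 over the 32 libraries after the group means were removed, given as a description. Within the 25 libraries without choroid plexus markers r was 0.77. The 2 genes are neighbours on chromosome 3 on the same strand, with 0 annotated genes and 17.7 kb between them in the mouse annotation used. Their log2 ratio had a median of -0.49 in Notch3+/+, -0.54 in Notch3-/-, -0.33 in WT and -0.28 in TgNotch3R169C, and ran from -0.82 to -0.07 over all mice. The log2 ratio of Npr3, the clearance receptor, to Npr1 had medians of 1.17, 1.14, 0.94 and 1.04 in the same order of groups. Npr3 thus had more reads in all groups, but this ratio is not divided by length. Npr3 has 9.389 kb of exon and Npr1 4.783 kb. Per kb of exon the mean of Npr3 was the higher in Notch3+/+ and Notch3-/-. Npr1 had the higher mean in WT (18.69 against 18.04 CPM per kb, higher in 6 of 8 mice). The same held in TgNotch3R169C (17.33 against 16.97 CPM per kb), but in only 3 of 8 mice. This order depended on the length used. By the longest transcript, 6.892 kb for Npr3 and 4.066 kb for Npr1, the mean of Npr3 was the higher in WT and in TgNotch3R169C as well.

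Over 15519 genes searched, the patterns most like Nos3 after removal of group means were Ccm2l, Esam and Fgd5, with r = 0.91 each. Pde3a was most like Mcam (r = 0.88), Pln (0.85) and Rasl12 (0.84), and Pde5a like Foxn3, Hmgn5 and Cald1 (0.76, 0.76 and 0.75). For Gucy1b1 the nearest were Smarcd1 and Abi2 (0.86 and 0.85), then Gucy1a1, and for Gucy1a1 they were Gucy1b1, Eepd1 (0.79) and Prex1 (0.76). Pde1a was nearest to Hlf (0.91), Robo1 (0.88) and Crabp2 (0.87), and Npr3 to Pccb (0.85), Fuca1 (0.81) and Sfrp1 (0.80). The r of 0.82 of Npr1 with F11r, Gas6 and N4bp3 was 0.57 to 0.61 in the 25 libraries without choroid plexus markers. Nos1 had no gene above 0.73 (Ptprr, then Prex2 at 0.68 and St3gal1 at 0.67) and Prkg1 none above 0.66 (St3gal2 and Eng at 0.66, Dgka at 0.64). All of these use the 32 libraries and describe likeness only.

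The rest of the pathway was read from a list of 54 other genes, grouped by role. This list was also chosen with earlier results of these data known, so its counts beside those of all genes are descriptions. In Notch3-/- arteries 1 of 48 tested genes was called by edgeR, and it was lower, beside 0.452% of all genes called lower. That gene was Pln, phospholamban, an inhibitor of the calcium pump of the sarcoplasmic reticulum and a protein kinase G substrate. It ran from 72.6 through 94.8 to 151.2 CPM in Notch3+/+ and from 30.2 through 38.4 to 52.6 CPM in Notch3-/-, without overlap, as held for 0.322% of all genes, with a log2 fold change of -1.31 ± 0.16 and an adjusted p of 0.000344 by edgeR. With the smooth muscle markers as a covariate it was -0.44 ± 0.11 and not called (edgeR adjusted p = 0.451), under the limit given above for that covariate in Notch3-/-. Of the 13 kinases and kinase substrates, 6 were lower at an unadjusted p below 0.05 and 0 higher, beside 3.96% of all genes lower at that p. Besides Pln these had Ppp1r12a and Ppp1r12b, targeting subunits of myosin phosphatase, at -0.33 and -0.34 (edgeR adjusted p = 0.0526 and 0.0824). DESeq2 called 6 genes of the list, adding both of these, Irag1, Kcnmb1 and Slc7a1, beside 1.57% of all genes. The list's median log2 fold change was -0.0091, beside -0.0011 for all genes.

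In TgNotch3R169C 0 of 49 tested genes of the list were called by edgeR, and DESeq2 and limma voom called 0 as well. At an unadjusted p below 0.05 there were 7 of 49, of which 4 were higher, beside 7.27% of all genes. The smallest p belonged to Abcc5, an exporter of cyclic nucleotides, at 0.15 ± 0.05 on the log2 scale (edgeR adjusted p = 0.611), to Irag1, the inositol trisphosphate receptor partner of protein kinase G, at -0.19 ± 0.07 (0.631), and to Trpc6, a cation channel, at 1.06 ± 0.43 (0.655). Trpc6 was low and uneven, from 0.762 to 3.20 CPM in WT and from 1.15 to 8.45 CPM in TgNotch3R169C. Pln was at -0.28 ± 0.12 (edgeR adjusted p = 0.679), and the test of the difference between the mutants called it, at 1.03 ± 0.21 with an adjusted p of 0.0106 by edgeR. That test called 0.35% of all genes, and mutation, age, line and cohort cannot be told apart in it. Without the 7 choroid plexus libraries the difference was 0.95 ± 0.24 and no longer called (edgeR adjusted p = 0.109), and with the smooth muscle markers as a covariate it was 0.44 ± 0.10 and not called (0.0517).

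Between the control groups 6 of 49 tested genes of the list were called by edgeR, 5 lower and 1 higher, beside 7.92% of all genes. The 5 lower genes were all kinase substrates or partners, out of 13 in that group. Pln had a log2 fold change of -0.92 ± 0.15, Kcnmb1, the smooth muscle subunit of the large-conductance calcium-activated potassium channel, -0.83 ± 0.12, Ppp1r12b -0.49 ± 0.08, Ppp1r12a -0.46 ± 0.07 and Irag1 -0.33 ± 0.08. The higher gene was Gchfr, the feedback regulator of the enzyme that makes the nitric oxide synthase cofactor tetrahydrobiopterin, at 0.53 ± 0.14 (edgeR adjusted p = 0.0291) and a level of only 1.36 to 3.48 CPM in these groups. Of the 8 other genes listed as phosphodiesterases and the 4 tested cyclases 0 were called by edgeR, with 1 of each at an unadjusted p below 0.05. Without the 7 choroid plexus libraries 3 of the 6 were called, Ppp1r12a, Ppp1r12b and Kcnmb1, and with the smooth muscle markers as a covariate none was, Pln then being at 0.05 ± 0.15. The limit given above for that covariate between the control groups holds here too.

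Some exons of the 10 genes lie opposite other annotated genes, and the strand setting of the counting is not given in the sources used here. Nos3 shares 25.2% of its exon bases with the antisense gene Gm15587 and 7.12% with Atg9b, Npr1 shares 11.7% with Gm16048, and Pde3a shares 5.82% with Gm28523. Counted on their own, these had at most 1.69, 3.39, 0.35 and 3.61 CPM in any library, against at least 144.4 CPM for Nos3, 69.0 CPM for Npr1 and 34.6 CPM for Pde3a. These levels cannot show whether reads in the shared bases were left out of the counts of Nos3, Npr1 and Pde3a.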

How the data were processed

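RNA of brain arteries from 32 mice in 4 groups of 8 was sequenced from stranded libraries made after polyA selection. Per the labels, the authors used bcl2fastq 2.20.0.422, cutadapt 1.10, Bowtie2 2.2.8, STAR 2.5.3a and HTSeq 0.6.1p1 on build mm39 and deposited raw read counts per Ensembl gene, without normalization. Gene names came from a table of identifiers and symbols.

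Counts were filtered with filterByExpr, scaled by TMM and tested with edgeR 4.0.16 (quasi-likelihood, R 4.3.3) on the 2 groups of each comparison, or on all 32 libraries for the difference between mutants. P-values were adjusted by Benjamini-Hochberg over all genes tested, and genes below 0.05 were called. CPM used 1 TMM scale over all libraries, and log2 CPM a prior count of 2. DESeq2 1.42.0, the tool of the study, limma 3.58.1 (voom), other scalings, filters, samples and covariates were alternatives. The fit was tested on simulated data. Exon lengths and overlaps came from a GENCODE annotation of build GRCm38, so no gene coordinates on mm39 are given.

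All 10 genes, those of the 54-gene list called in any comparison or among the 3 smallest p of a mutant comparison, and the 3 genes most like each of the 10 are named. The genes and lists were chosen with earlier results of these data known. The replicate pairs of a group, 112 in all, differed beyond counting noise (chi-square per gene 10.0 to 142.0), so none was taken as the same library. Depth limits low genes such as Trpc6 more than the 10 genes, which had at least 564 counts in every library. No column was left without a sample.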

Additional observations from a re-analysis of the deposited data

Results flagged for a closer look

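Of 40 sets of 8 mice, 1 for each of the 10 genes in each group, 4 had a mouse whose distance to its nearest neighbour took more of the group's range than Dixon's 95% critical value, where chance gives about 1 in 20 groups, or 2 of 40. TgNotch3R169C replicate 5 stood out for both cyclase subunits. Gucy1a1 was at 61.4 CPM there against 41.7 CPM in the next mouse (share of the range 0.573), and Gucy1b1 at 66.3 against 48.0 CPM (0.567). This library also had the highest sum of neuron markers, 1066 CPM, and was 1 of the 7 with choroid plexus markers, and the part of either in these values was not tested. Pde3a in WT replicate 1 was at 55.5 CPM against 44.0 CPM in the next mouse (0.551). Npr1 in Notch3-/- replicate 8 was at 93.3 CPM against 79.7 CPM (0.575), in the only Notch3-/- library with choroid plexus markers.

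Pln, the phospholamban gene, differed between the mutants' changes by the interaction test, in which mutation, age, line and cohort cannot be told apart. Its log2 fold change was -1.31 in Notch3-/- and -0.28 in TgNotch3R169C, a difference of 1.03 ± 0.21 with an adjusted p of 0.0106 by edgeR. It was the only gene of the 54-gene list called in that test, and none of the list was called without the 7 choroid plexus libraries or with the smooth muscle markers as a covariate, under which the Pln difference was 0.44. The controls of the 2 contrasts differed as well, from a median of 94.8 CPM at 3 months to 53.3 CPM at 12 months, while the 2 mutants had medians of 38.4 and 44.0 CPM.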

How the results depend on the processing

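Each mouse was left out in turn, and 14 other settings were tried, of which the one without the 7 choroid plexus libraries was chosen after seeing the data. No mutant comparison called any of the 10 genes under these, except for Pde3a in Notch3-/- (1 of 10) in the fit of all 4 groups and with the endothelial covariate. Between the control groups the 5 called genes went to 0 with the smooth muscle covariate, 1 with the endothelial, 3 with the choroid plexus covariate and 3 without the 7 libraries. The pathway list went there from 6 to 0, 2, 3 and 3 in the same order. In Notch3-/- its 1 call became 6 with DESeq2, 2 with upper-quartile scaling, 4 in the fit of all 4 groups, 2 with the replicate block, 0, 3, 2 and 3 with the smooth muscle, endothelial, neuron and choroid plexus covariates, and 1 to 2 on leaving out 1 mouse (2 without Notch3+/+ replicates 2, 4 or 8, or Notch3-/- replicate 1). For the difference between mutants its 1 call became 0 with the smooth muscle covariate and without the 7 libraries. The cause of these shifts was not tested.

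Of 550 log2 fold changes, counted per gene, comparison and setting, 37 had the sign opposite to the estimate given above. The same gene and comparison can recur among these 37, and none of them was called in either fit. In Notch3-/- and between controls the smooth muscle covariate can hardly be separated from the group. With the smooth muscle covariate they were, in Notch3-/-, 0.0028 for Gucy1a1, 0.13 for Gucy1b1, 0.037 for Prkg1, 0.20 for Pde5a, 0.20 for Pde3a, 0.040 for Pde1a, -0.020 for Npr1 and -0.042 for Npr3. In TgNotch3R169C they were 0.049 for Prkg1, 0.034 for Pde3a and 0.035 for Pde1a, between controls 0.20 for Nos1 and 0.11 for Gucy1a1, and for the difference between mutants -0.058 for Nos1, -0.0093 for Prkg1, -0.10 for Pde5a, -0.13 for Pde1a and 0.018 for Npr3. With the endothelial covariate they were -0.023 for Pde5a in TgNotch3R169C, 0.16 for Nos1, 0.034 for Nos3, 0.010 for Pde1a and 0.012 for Npr3 between controls, and -0.025 for Pde1a between mutants. With the neuron covariate Npr3 was 0.055 between controls, and with no filter Pde1a was -0.0041 between mutants. With the choroid plexus covariate they were -0.00097 for Npr3 in Notch3-/-, 0.18 for Nos1 and 0.00054 for Pde1a between controls, and -0.068 for Pde1a between mutants. Without the 7 libraries they were 0.00099 for Pde5a, -0.013 for Npr1 and -0.010 for Npr3 in Notch3-/-, -0.0022 for Gucy1a1 in TgNotch3R169C, 0.11 for Nos1 between controls, and -0.051 for Nos1 and -0.089 for Pde1a between mutants. On leaving out 1 mouse, estimates that changed sign ran from -0.14 to 0.043 for Nos1 and -0.083 to 0.044 for Npr3 between controls, from -0.013 to 0.055 for Npr1, -0.054 to 0.082 for Npr3 and -0.047 to 0.013 for Pde5a in Notch3-/-, from -0.017 to 0.041 for Pde5a and -0.064 to 0.0036 for Prkg1 in TgNotch3R169C, and from -0.055 to 0.055 for Pde1a between mutants.

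Counts over all genes that moved by over 1.5 times were, in Notch3-/- (115), 278 with DESeq2, 174 in the fit of all 4 groups and 14 with the smooth muscle covariate, and in TgNotch3R169C (20), 80 with DESeq2, 6 with the replicate block, 31 and 10 with the endothelial and neuron covariates, 2 without the 7 libraries and 11 to 13 without TgNotch3R169C replicate 1 or WT replicates 3, 4 or 7. Between controls (1398) they were 2262 with DESeq2, 715 with the replicate block, 2, 166 and 303 with the smooth muscle, endothelial and choroid plexus covariates, 402 without the 7 libraries and 895 without Notch3+/+ replicate 7, and between mutants (65) 155 with DESeq2 and 39 without the 7 libraries. Whether the replicate numbers pair the mice was not settled. Deviations of same-numbered mice correlated at -0.25 to 0.42, over 0.1 in 4, 4 and 3 of 8 pairs. Of 16 libraries, 5, 2 and 3 correlated best with their own number, and no chance level was computed for these counts. The replicate block changed no call of the 10 genes.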

Other observations

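Pde1a was uneven among the 7 choroid plexus libraries. The lowest Pde1a value of Notch3-/- (157.6 CPM, replicate 8), of WT (182.3 CPM, replicate 4) and of TgNotch3R169C (150.6 CPM, replicate 5) was each in a library with those markers. Other libraries of the 7 lay higher, with WT replicate 2 at 224.5 CPM, TgNotch3R169C replicate 8 at 217.8 CPM, WT replicate 5 at 206.2 CPM and WT replicate 6 at 186.96 CPM, beside group medians of 217.1 CPM in WT and 200.3 CPM in TgNotch3R169C. Without the 7 libraries the log2 fold change of Pde1a was -0.0067 in Notch3-/- in place of -0.07, and -0.10 in TgNotch3R169C in place of -0.06.

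The 4 genes that were lower in WT at 12 months than in Notch3+/+ at 3 months can be set beside both mutants by their medians. At 12 months Prkg1 had medians of 30.8 CPM in TgNotch3R169C and 30.1 CPM in WT, Pde5a 146.1 and 146.9 CPM, Pde3a 39.3 and 42.1 CPM, and Gucy1b1 41.9 and 38.6 CPM. The 3-month medians of Notch3-/- and Notch3+/+ were 35.5 and 42.7 CPM for Prkg1, 178.5 and 174.8 CPM for Pde5a, 52.0 and 70.7 CPM for Pde3a, and 45.7 and 49.2 CPM for Gucy1b1.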
